A study of Mus musculus with 24 samples.

Results

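The response of mouse hepatocytes to GW4064 while glucagon was present was measured on 12 of the 24 arrays of the series. They were all the arrays whose titles carry the glucagon label, 6 with GW4064 and 6 with its solvent DMSO. Each GW4064 array was set against the DMSO array of the same experiment and the same hairpin, which gave 6 pairs. Primary hepatocytes, that is, liver cells taken from the animal and kept in culture, came from male C57Bl6J mice. Every culture carried an adenovirus at a multiplicity of infection of 5, with a short hairpin RNA against lacZ (shlacZ), a bacterial gene used as a control target, or against the transcription factor FOXA2 (shFOXA2; 1 hairpin, shFOXA2.3). The 4 groups were shlacZ with glucagon and DMSO, shlacZ with glucagon and GW4064, shFOXA2 with glucagon and DMSO, and shFOXA2 with glucagon and GW4064, with 3 arrays each. Glucagon was used at 100 nM and GW4064 at 2 µM, added together for 4 h, in a medium with 100 nM dexamethasone, a synthetic glucocorticoid that all groups shared. The other 12 arrays had 1 nM insulin in place of glucagon, so that no group was free of both hormones. Experiments 1 to 3 each used hepatocytes pooled from 3 mice. The hairpin arrays of an experiment therefore came from the same pool, and the 6 pairs stand for 3 pools of cells.

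FXR, the product of Nr1h4, is a nuclear receptor that bile acids activate and that binds DNA together with RXR, often at a pair of AGGTCA hexamers facing each other with a spacer of 1 base. In the liver it is known to raise the pumps that carry bile acids out of the cell and to lower bile acid synthesis, in part through the repressor SHP (Nr0b2). Glucagon is the hormone of fasting and acts through cAMP to switch on glucose production and amino acid breakdown, and GW4064 is a synthetic agonist of FXR. The series asks, by its title, how FXR bears on the fasting production of glucose, and the comparison takes this up in cells under glucagon.

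The DNA just before the start sites of 4 genes is given first, since FXR acts by binding DNA. These 4 were picked from a larger set of named genes whose promoters were searched. Each run is the 250 bases upstream of the start site, 5′ to 3′ on the gene's own strand, from RefSeq on GRCm38.p6, and capitals mark the best match to the inverted repeat where it had at most 3 mismatches. The motif searched was AGGTCA, 1 base of any kind and TGACCT, which reads the same on both strands, so that 1 search covered both. Abcb11, the bile salt export pump, lies at chr2:69342617-69342866 on the minus strand, and Osgin1 at chr8:119436897-119437146 on the plus strand. Slc51b, the beta subunit of the exporter on the blood side of the cell, lies at chr9:65422774-65423023 on the minus strand, and Fbp1, the gluconeogenic fructose bisphosphatase, at chr13:62888283-62888532 on the minus strand.
Abcb11: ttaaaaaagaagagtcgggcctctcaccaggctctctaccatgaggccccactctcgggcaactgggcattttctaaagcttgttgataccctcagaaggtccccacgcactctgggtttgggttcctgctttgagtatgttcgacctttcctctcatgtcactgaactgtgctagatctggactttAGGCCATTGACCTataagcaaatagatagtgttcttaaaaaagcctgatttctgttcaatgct
Osgin1: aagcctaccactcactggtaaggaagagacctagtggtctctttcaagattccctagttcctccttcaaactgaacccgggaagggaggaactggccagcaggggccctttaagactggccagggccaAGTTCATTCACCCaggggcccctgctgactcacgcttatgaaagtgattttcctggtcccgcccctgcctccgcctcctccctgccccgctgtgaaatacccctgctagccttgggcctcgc
Slc51b: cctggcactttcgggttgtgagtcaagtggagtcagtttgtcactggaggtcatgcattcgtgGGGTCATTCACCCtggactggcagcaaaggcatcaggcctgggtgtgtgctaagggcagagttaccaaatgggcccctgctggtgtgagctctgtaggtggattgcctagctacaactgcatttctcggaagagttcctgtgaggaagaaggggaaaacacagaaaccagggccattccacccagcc
Fbp1: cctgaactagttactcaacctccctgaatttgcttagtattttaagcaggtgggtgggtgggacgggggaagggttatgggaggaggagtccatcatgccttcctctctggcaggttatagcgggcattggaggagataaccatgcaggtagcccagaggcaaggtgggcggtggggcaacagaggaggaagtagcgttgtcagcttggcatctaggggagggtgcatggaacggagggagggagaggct
The Abcb11 match had 1 mismatch to the motif, T4C, counted from 1 at the motif's first base, and lay from -63 to -51 relative to the start. At most 1 mismatch was found in 0.0792% of all 32841 promoters of this length. The matches of Osgin1 (G3T, G9C and T13C, at -122 to -110) and Slc51b (A1G, G9C and T13C, at -187 to -175) had 3 mismatches each, and at most 3 occurred in 9.63% of promoters. Both of these matches carry G9C and T13C. The best match of Fbp1 had 5 mismatches, a number that 96.4% of promoters reach or better, so no letters are in capitals. Among the other promoters searched, that of the bile acid synthesis gene Cyp8b1 also had 3 mismatches, and this gene was at -0.21 with GW4064. The rest had at least 4, among them Nr0b2 and Abcb4, with 4 each. A match is a description of the letters and not a measured binding site. Whether matches go with the response to GW4064 was not tested.

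Levels are log2 intensities as deposited, differences are GW4064 minus DMSO on the log2 scale with their standard error (SE), and a gene passed where limma's p, adjusted by Benjamini-Hochberg over all 22180 genes, was under 0.05. The median over all values of the 12 arrays was 3.26, and levels under 4 were taken as close to the floor of the array. Across genes, the arrays within a group had r of 0.987 to 0.993 with each other. Arrays of the same experiment deviated together from their group means, with r from 0.428 to 0.607 across genes in the 6 pairs. Foxa2, the target of the hairpin, read 7.11 to 7.72 on the 6 shlacZ arrays and 6.79 to 7.21 on the 6 shFOXA2 arrays, so that the ranges overlapped. The hairpin difference of Foxa2 was -0.43 (SE 0.10, unadjusted p = 0.00141, adjusted p = 0.733 with limma), which did not pass, and the groups are named by the hairpin on their labels. The 8 hepatocyte markers summed to 80.7 to 84.9 on the DMSO arrays and 80.4 to 85.3 on the GW4064 arrays. In RNA from whole cultures, fewer cells of a type and less RNA per cell cannot be told apart.

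GW4064 raised 1 gene under glucagon past the adjusted threshold, Osgin1, and lowered none. Osgin1, the oxidative stress induced growth inhibitor, is also known as a target of the oxidative stress factor NRF2. The pass rate over all genes was 0.00451% for rises and 0.0% for falls. At an unadjusted p under 0.05, 624 genes were higher (2.81%) and 667 lower (3.01%), 5.82% of all genes in total. Of the 22180 genes, 404 were higher in all 6 pairs (1.82%) and 430 lower in all 6 (1.94%). Differences beyond 1.5-fold were few, 7 genes higher and 3 lower, and the median SE of a gene was 0.0753.

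Osgin1 (probe set 17506081) read 8.07, 7.37 and 7.30 with shlacZ and DMSO in experiments 1, 2 and 3, and 9.26, 8.88 and 7.85 with GW4064. With shFOXA2 it read 8.39, 7.53 and 7.08 with DMSO and 9.54, 8.71 and 8.26 with GW4064. Every GW4064 array was above its own DMSO array, although the groups overlapped across experiments because experiment 1 was high and experiment 3 low under both agents. Osgin1 rose by 1.13 (SE 0.10, 95% interval 0.90 to 1.35, 2.18-fold, adjusted p = 0.00637 with limma). Of the 6 pairs, 5 lay between 1.15 and 1.51 and the shlacZ pair of experiment 3 at 0.55. The hairpins gave near values, 1.08 (SE 0.15) with shlacZ and 1.17 (SE 0.15) with shFOXA2, and the interval of their difference ran from -0.38 to 0.56. The call rests on the pairing and on 3 pools. Without the pair block the adjusted p was 0.9999, without experiment 1 it was 0.344, without experiment 2 0.321, without the shlacZ pair of experiment 1 0.0652, without the shFOXA2 pair of experiment 2 0.0634, and with all 41345 probe sets tested 0.131; over the 19 alternatives it ran from 1.17e-06 to 0.9999. With the hairpins averaged within each experiment, 3 pairs in all, it was 0.0213.

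**Figure D1:**
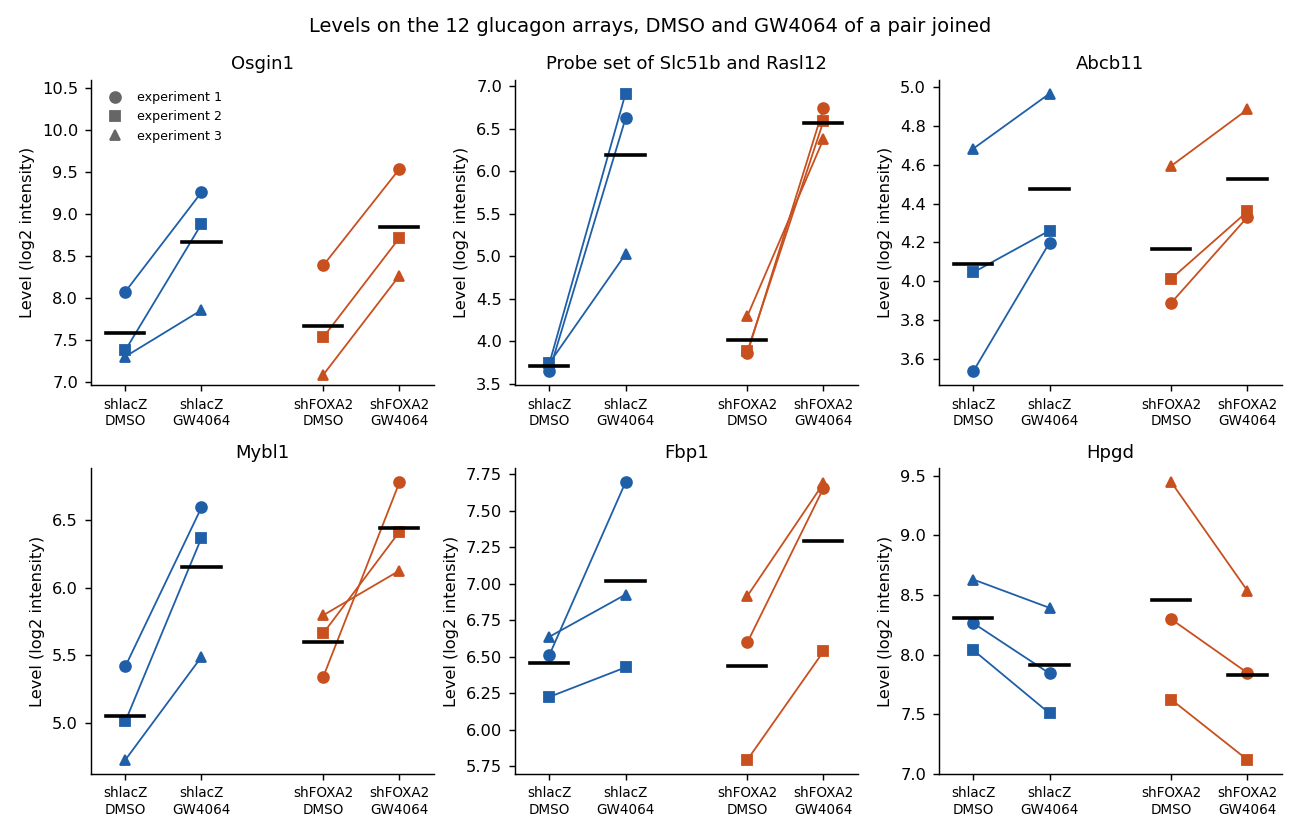
Levels (log2 intensity) of Osgin1, the probe set of Slc51b and Rasl12, Abcb11, Mybl1, Fbp1 and Hpgd on the 12 glucagon arrays, by hairpin and agent; lines join the DMSO and GW4064 arrays of a pair, marker shapes give the experiment and black bars the mean of 3 arrays. Every line slopes up for the first 5 and down for Hpgd, and for Osgin1 the slope is flattest in the shlacZ pair of experiment 3, at 0.55.

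The widest difference came from a probe set that could not be given to a gene. The annotation assigns it (17528249) to both Slc51b, a standard FXR target, and Rasl12, a Ras-like protein, and the reference gene table has these genes overlapping on chromosome 9. With shlacZ it read 3.65, 3.74 and 3.74 with DMSO and 6.62, 6.91 and 5.02 with GW4064, and with shFOXA2 3.86, 3.88 and 4.29 with DMSO and 6.74, 6.59 and 6.38 with GW4064. The GW4064 arrays of both hairpins were all above all DMSO arrays, with shlacZ in experiment 3 the lowest of them. For this probe set of Slc51b and Rasl12 the difference was 2.52 (SE 0.24, 5.72-fold, unadjusted p = 6.03e-06), with an adjusted p = 0.131 in the limma fit over every probe set. Rasl12 has a probe set of its own, and there the difference was 0.03 (SE 0.076, unadjusted p = 0.695 with limma).

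The exporters on the bile side had smaller differences. Abcb11 (17386177) read 3.54, 4.05 and 4.68 with shlacZ and DMSO and 4.20, 4.26 and 4.97 with GW4064, and 3.89, 4.01 and 4.59 against 4.33, 4.36 and 4.89 with shFOXA2. It was higher with GW4064 in 6 of 6 pairs, by 0.22 to 0.66, while the levels of the experiments overlapped and lay near the limit of 4. The difference was 0.37 (SE 0.071, 1.30-fold, adjusted p = 0.278 with limma), short of the threshold. Abcb4, which moves phospholipid into bile, was higher in 5 of 6 pairs, with 0.35 (SE 0.13, unadjusted p = 0.0246, adjusted p = 0.805 with limma), and 0.16 without experiment 1. Abcc2, which exports conjugates, differed by 0.04 and Slc51a, the partner of Slc51b, by -0.02 at a level of 2.51, close to the floor. Of the 8 tested genes of export and conjugation, 0 passed and 2 were higher at an unadjusted p under 0.05 (Abcb11 and Abcb4), against 2.81% of all genes. Of these 8, 4 lay above 0, with a median of 0.02 against 5.9e-05 over all genes.

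Among the receptor and the feedback genes, Nr0b2 (SHP) stayed between 2.86 and 3.74 on all 12 arrays, close to the floor. Its pairs gave 0.52, 0.80 and -0.21 with shlacZ and 0.72, 0.50 and 0.48 with shFOXA2, 5 of 6 of them above 0. The difference was 0.47 (SE 0.11, adjusted p = 0.471 with limma). Mafg, a small Maf protein known to repress bile acid synthesis genes, was at 0.26 (SE 0.085, adjusted p = 0.745). Cyp7a1, which opens bile acid synthesis, was at -0.07 at a level of 2.67, where a fall could hardly show. Cyp8b1, which makes the cholic acid branch, was lower in 6 of 6 pairs but also near the floor, with -0.21 (SE 0.063, adjusted p = 0.646 with limma). Under insulin Cyp8b1 lay the other way with GW4064, at 0.29, with 5 of 6 pairs higher. Of the 8 feedback genes, 1 passed (Osgin1), 3 were higher and 1 lower at an unadjusted p under 0.05, and the median was -0.05. Over all genes 2.81% were higher and 3.01% lower at that limit. Nr1h4 itself was lower with GW4064 in 5 of 6 pairs, by -0.30 on average (SE 0.10, unadjusted p = 0.0130, adjusted p = 0.748), and by -0.17 without experiment 3. Rxra, its partner, was at 0.01.

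Of the 14 genes of bile acid synthesis and uptake, 12 lay below 0 and 0 passed. Their median was -0.06 against 5.9e-05 over all genes, of which 3.01% were lower at an unadjusted p under 0.05. The 3 at an unadjusted p under 0.05 were Cyp8b1 and the uptake carriers Slco1a1 (-0.29, and -0.18 without the shFOXA2 pair of experiment 3 or -0.09 without experiment 3) and Slco1a4 (-0.28, and -0.18 without the shFOXA2 pair of experiment 2, -0.15 without experiment 2 or -0.43 without experiment 3). Of the 17 lipid and other metabolic targets, 0 passed, 13 lay above 0 and the median was 0.05. Only Ppara, a receptor for fatty acids, reached an unadjusted p under 0.05 there, at -0.27 (SE 0.10), and was at -0.12 without experiment 2. Fibrinogen chains, which FXR is known to raise, were at 0.19 (Fga), 0.17 (Fgb) and 0.04 (Fgg), with adjusted p = 0.880 or above with limma.

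The genes with the smallest p after Osgin1 did not pass, and are given as such. Mybl1 (17221158), a transcription factor of the MYB family, read 5.42, 5.01 and 4.73 with shlacZ and DMSO and 6.60, 6.37 and 5.49 with GW4064. With shFOXA2 it read 5.34, 5.66 and 5.80 with DMSO and 6.78, 6.42 and 6.13 with GW4064. All 6 pairs were up, with the smallest step in the shFOXA2 pair of experiment 3, whose DMSO array stood above the shlacZ GW4064 array of that experiment. The difference was 0.97 (SE 0.13, 1.96-fold, adjusted p = 0.0993 with limma). Mybl1 did pass under 4 of 19 alternatives, among them the fit without experiment 3 (adjusted p = 0.0316) and without the shFOXA2 pair of experiment 3 (0.0298).

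Mir5124a read 4.28, 4.03 and 5.09 with shlacZ and DMSO and 5.24, 5.26 and 5.74 with GW4064, and 3.95, 4.35 and 5.75 against 5.31, 5.32 and 6.14 with shFOXA2. Experiment 3 was the highest of each group, and its shFOXA2 DMSO array stood above every GW4064 array of experiments 1 and 2. The difference was 0.92 (SE 0.11, adjusted p = 0.0687 with limma). In the reference gene table Mir5124a lies within Gcnt2, which makes branched sugar chains and was itself at 0.45 (SE 0.11, adjusted p = 0.471), and signal from the small RNA and from its host gene cannot be told apart here. Otud1, which removes ubiquitin, was at 0.47 (SE 0.078, adjusted p = 0.233). Olfr1487, an olfactory receptor gene (0.62, adjusted p = 0.100), and Ces1h, a carboxylesterase (0.44, adjusted p = 0.165), were higher in 6 of 6 pairs at levels under 4, with means of 2.76 and 2.89 on the DMSO arrays.

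Nr1i2, the xenobiotic receptor PXR, had one of the larger differences and one of the least even. It read 4.63, 5.17 and 4.90 with shlacZ and DMSO and 6.56, 5.29 and 5.05 with GW4064, and 4.90, 4.94 and 5.71 against 6.35, 5.05 and 7.11 with shFOXA2. In 3 of the pairs the step was 1.40 to 1.93, and in the other 3 only 0.11 to 0.15, although all 6 were upward. The difference was 0.86 (SE 0.23, 1.81-fold, adjusted p = 0.574 with limma), and 0.45 without experiment 1.

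Among the lower genes, Hpgd, which breaks down prostaglandins, read 8.26, 8.04 and 8.63 with shlacZ and DMSO and 7.84, 7.51 and 8.39 with GW4064, and 8.30, 7.62 and 9.45 against 7.85, 7.12 and 8.54 with shFOXA2. Each GW4064 array was below its DMSO array and experiment 3 was highest throughout. The difference was -0.51 (SE 0.083, adjusted p = 0.230 with limma). Fezf1, a zinc finger factor known from the developing forebrain, was lower in all pairs, from -1.18 to -0.41, with a mean of -0.61 (SE 0.097, adjusted p = 0.230). Fam13a was at -0.58, Trdmt1, a tRNA methyltransferase, at -0.46, Nf2, the tumour suppressor merlin, at -0.36 and Mir329 at -0.47, all with adjusted p = 0.271. Each of these 6 was lower in 6 of 6 pairs, which held for 1.94% of all genes. They were chosen by the smallest p over these same pairs, so the shared sign follows largely from the choice.

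**Figure D2:**
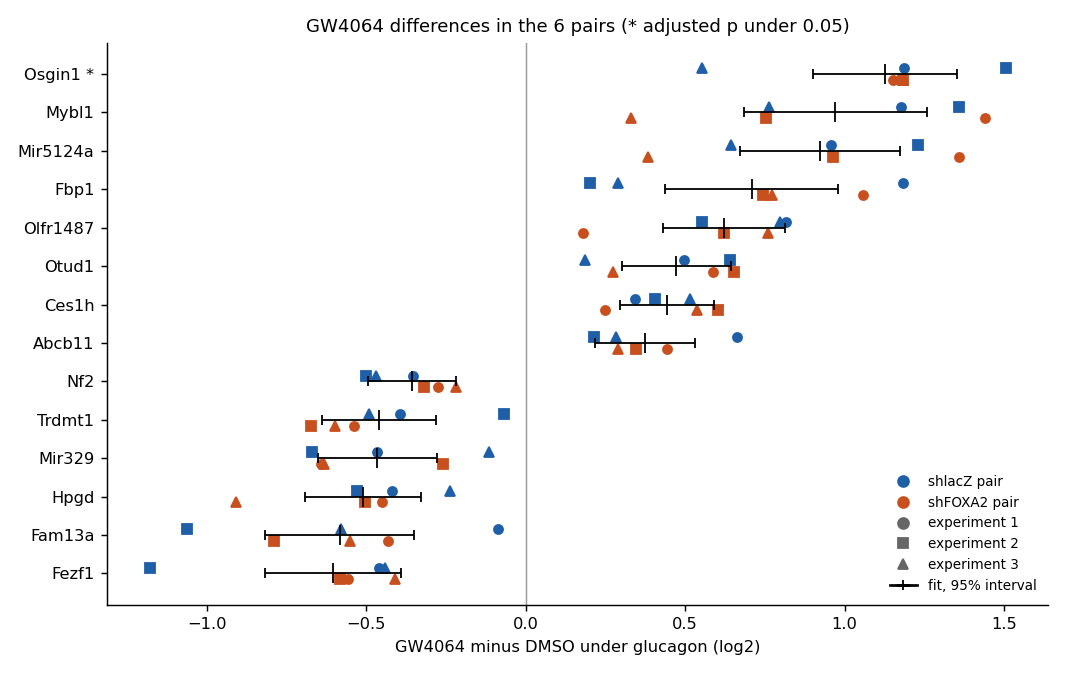
GW4064 minus DMSO under glucagon (log2, x axis) in each of the 6 pairs for the 6 genes with the smallest p in each direction and for Fbp1 and Abcb11; colours give the hairpin, shapes the experiment, and black bars the fitted difference with its 95% interval. All points of a gene lie on 1 side of 0, and Osgin1, at 1.13, is the gene that passed. The 6 genes in each direction were chosen by p over these same pairs.

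Among the genes of gluconeogenesis, the making of glucose that glucagon drives, Fbp1 stood apart from the rest in size. Of 11 tested genes 0 passed, 5 lay above 0, and the median was -0.02 against 5.9e-05 over all genes. Pck1, which makes phosphoenolpyruvate, was at 0.12 (SE 0.13), G6pc, which releases glucose, at -0.16 (SE 0.23), and Ppargc1a, the coactivator that glucagon induces, at -0.02 (SE 0.11). G6pc ranged from -1.29 in the shlacZ pair of experiment 2 to 0.60 in the shFOXA2 pair of experiment 1. Its sign followed the experiment in both hairpins only for experiments 1 and 2, which were up and down.

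Fbp1 (17293557) read 6.51, 6.22 and 6.64 with shlacZ and DMSO and 7.70, 6.43 and 6.93 with GW4064. With shFOXA2 it read 6.60, 5.79 and 6.92 with DMSO and 7.66, 6.54 and 7.69 with GW4064. All 6 pairs were up, but the shlacZ pairs of experiments 2 and 3, at 0.20 and 0.29, were small beside the 0.74 to 1.18 of the other pairs, and the groups overlapped. The difference was 0.71 (SE 0.12, 95% interval 0.44 to 0.98, 1.63-fold, unadjusted p = 1.27e-04, adjusted p = 0.271 with limma), short of the threshold. By hairpin it was 0.56 (SE 0.17) with shlacZ and 0.86 (SE 0.17) with shFOXA2, and the interval of the difference ran from -0.23 to 0.83.

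Other fasting programmes held a few genes with an unadjusted p under 0.05, among them genes higher with glucagon than with insulin. Of 17 genes of amino acid breakdown and the urea cycle 0 passed and 12 lay below 0, with a median of -0.03 against 5.9e-05 over all genes. At an unadjusted p under 0.05, 2.81% of all genes were higher and 3.01% lower, and of these 17 genes 4 were lower. These were Aass, which degrades lysine (-0.47, SE 0.11), Cps1, which opens the urea cycle (-0.40, SE 0.13), Arg1, which closes it (-0.38, SE 0.083), and Oat, an ornithine transaminase (-0.21, SE 0.078). Aass, Cps1 and Arg1 were lower in all 6 pairs, and experiment 2 held the lowest pair of each in shlacZ, at -0.99 for Aass, -1.02 for Cps1 and -0.80 for Arg1. Without experiment 2 the difference was -0.26 for Aass and -0.14 for Cps1, and without experiment 1 it was -0.13 for Oat. Of 11 genes of glycolysis and glycogen 0 passed and 10 lay below 0, with Gys2, a glycogen synthase, at -0.31, Ppp1r3b, a glycogen regulator, at -0.28 and Pygl, a glycogen phosphorylase, at -0.16, where Gys2 was at -0.16 without experiment 2 and -0.56 without experiment 1. Of 16 early cAMP targets 0 passed, with Sik1, a kinase, at 0.20 and Pde4b, which breaks down cAMP, at 0.19 the only genes at an unadjusted p under 0.05. Of 14 genes of fat oxidation 0 passed, and of 14 genes of lipogenesis 0 passed, with the phosphatase Lpin1 at -0.30 the lowest (-0.17 without experiment 2).

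Immune and stress lists had medians slightly above 0, where the median over all genes was 5.9e-05. Of 16 genes of the acute phase and NF-kB 0 passed, 14 lay above 0 and the median was 0.08, with the chemokine Cxcl2 at 0.54 (SE 0.18), the adhesion molecule Icam1 at 0.30 (SE 0.13) and the growth factor Csf1 at 0.23 (SE 0.099). These values rested on single pairs or experiments. Icam1, up in 4 of 6 pairs, was at 0.16 without the shFOXA2 pair of experiment 3, 0.13 without experiment 3 and 0.52 without experiment 1. Csf1 was at 0.14 without the shlacZ pair of experiment 2 or without experiment 2 and 0.36 without experiment 1, and Cxcl2 at 0.35 without experiment 3 and 0.84 without experiment 1. Of 11 interferon genes 0 passed and 8 lay above 0, and the median was 0.14, with Cxcl10 at 0.33, Irf7 at 0.29, Usp18 at 0.19 and Rsad2 at 0.16. Cxcl10 was at 0.21 without experiment 2 and Usp18 at 0.13 without the shFOXA2 pair of experiment 3. Atf3, a stress factor, was at 0.42 (SE 0.12, adjusted p = 0.648 with limma), and at 0.17 without experiment 2. Of the 15 genes of the NRF2 and oxidative stress list, which holds NRF2 (Nfe2l2), its repressor Keap1, its targets and antioxidant enzymes, the median was 0.01, with Nqo1 at 0.08 and Hmox1 at -0.02, and Osgin1 alone passed. Gclc, which makes glutathione, was lower in 6 of 6 pairs, at -0.17 (SE 0.058, adjusted p = 0.748).

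Markers of other cell types were also read, since a culture of liver cells can hold them. None of the tested markers of these other cells passed (limma, adjusted over all genes). At an unadjusted p under 0.05, 2 were higher (Sox9 and Nkg7) and 2 lower (Krt19 and Clec4g). Of all genes, 2.81% were higher and 3.01% lower at that limit. Nkg7 and Clec4g stood at 2.99 and 2.46, close to the floor. Summed levels overlapped between the agents for macrophages (36.2 to 39.5 with DMSO and 36.8 to 40.4 with GW4064, 9 genes), stellate cells (33.2 to 35.8 and 32.9 to 36.1, 9 genes), endothelial cells (36.4 to 43.6 and 35.9 to 42.9, 9 genes), cholangiocytes (18.8 to 20.3 and 19.2 to 20.0, 5 genes) and lymphocytes (20.2 to 21.0 and 20.6 to 22.0, 8 genes), and 1 of 7 erythroid genes was tested. Adgre1, which defines macrophages, and Cd3e, which defines T cells, stood at 2.47 and 2.42, close to the floor, while the macrophage genes Cd68 and Cd14 stood at 9.24 and 8.05. Sox9, a cholangiocyte marker, was at 0.37 (SE 0.085, adjusted p = 0.468 with limma), with Epcam at 0.11 and Krt19 at -0.16. The part of these markers in the results was not tested.

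**Figure D3:**
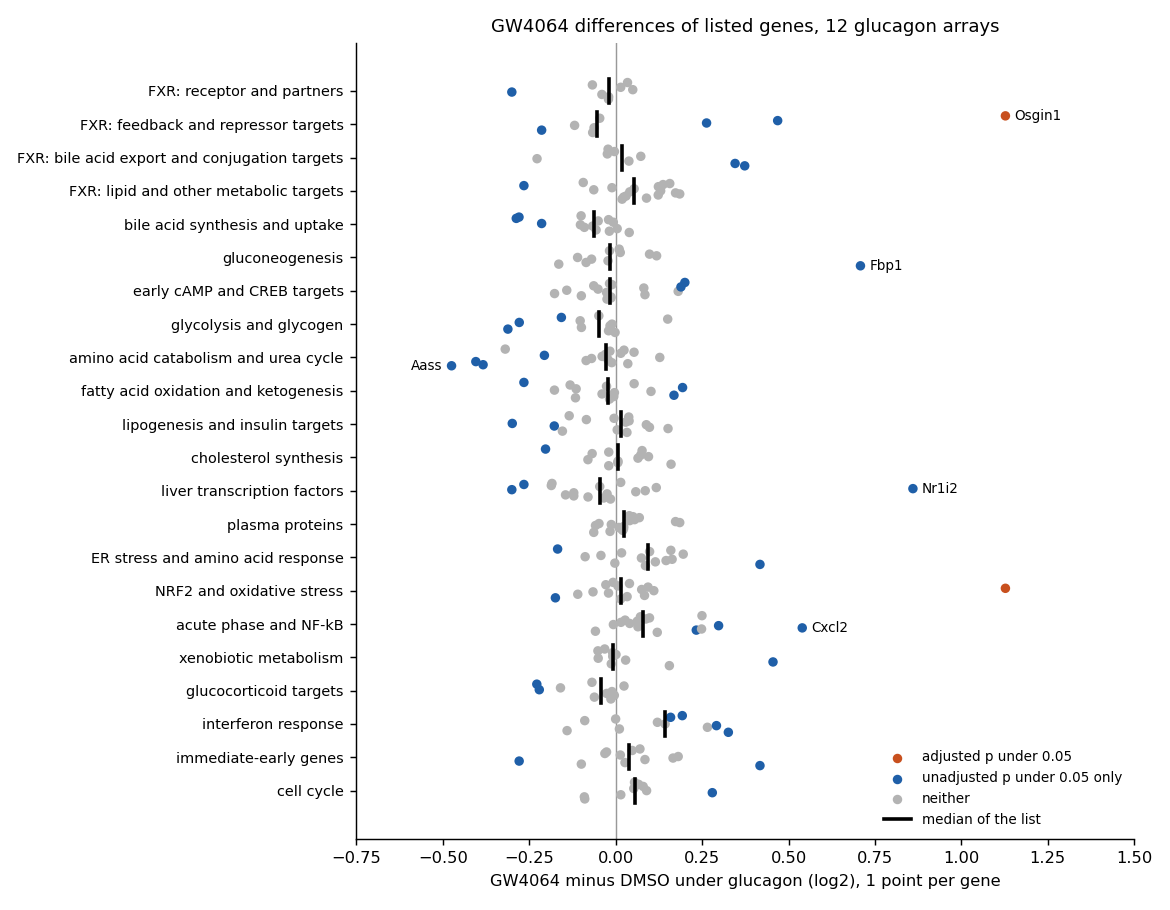
GW4064 minus DMSO under glucagon (log2, x axis) for each tested gene of the 22 gene lists, from the 12 glucagon arrays; black bars give the median of each list, orange points passed the adjusted threshold, blue points had an unadjusted p under 0.05 only, and grey points neither. The medians lie between -0.06 and 0.14, and Osgin1, on the feedback and the NRF2 lists, is the only gene that passed the adjusted threshold.

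The hairpins were then compared. With shlacZ 0 genes passed (0.0%; 1285 at an unadjusted p under 0.05) and with shFOXA2 0 passed (0.0%; 1422 unadjusted). The test of the difference between the hairpins also gave 0 genes (0.0%; 1353 unadjusted), with limma in each case. Across all genes the 2 sets of differences had r = 0.022, and r = 0.041 over the 9056 genes with a mean level of at least 4. They share no array but do share the cell pools and the experiment, and genes are not independent replicates. Of the 100 genes with the smallest p among those higher with shlacZ, 60 were also above 0 with shFOXA2, with a median of 0.04, and of the 100 among those lower, 49 were below 0. In the other direction 58 of 100 and 57 of 100 kept their sign. Osgin1, Mybl1, Mir5124a, Abcb11 and the probe set of Slc51b and Rasl12 were higher with GW4064 in all 3 pairs of each hairpin. Osgin1, Mybl1 and Mir5124a were named for a small p over both hairpins together, and Abcb11 was given for the comparison. Their shared sign is therefore not separate evidence that the hairpins agree. For Abcb11 the hairpin difference had an interval of -0.36 to 0.30, and for Mybl1 of -0.84 to 0.32. Nr1h4 differed by -0.46 (SE 0.13) with shlacZ and -0.14 (SE 0.13) with shFOXA2, where the test of the difference gave 0.33 (SE 0.18, adjusted p = 0.842 with limma).

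Under insulin, GW4064 raised 2 genes past the threshold (0.00902%), Osgin1 and Mybl1. Osgin1 stood much higher there, at 9.20 to 10.7 on the DMSO arrays and 9.80 to 11.3 with GW4064, so that no glucagon DMSO array reached the lowest insulin array. Its GW4064 difference was 0.51 (SE 0.051, adjusted p = 0.0209) under insulin against 1.13 under glucagon. The test of that difference gave 0.62 (SE 0.12, interval 0.36 to 0.87, adjusted p = 0.308 with limma), which did not pass. Glucagon minus insulin with DMSO was -2.37 for Osgin1 (adjusted p = 1.38e-13), in a comparison where 1713 genes were higher (7.72%) and 2132 lower (9.61%) and which shares the glucagon DMSO arrays with that of GW4064. With GW4064 the Osgin1 level under glucagon, 8.75 ± 0.62 (SD, n = 6 arrays from 3 pools), remained below the insulin DMSO level of 9.99 ± 0.64 (SD, n = 6).

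Fbp1 and Abcb11 had mean differences near 0 with GW4064 under insulin, with 3 of 6 pairs above 0 for each. The Fbp1 pairs ran from -0.05 to 0.33. Its shlacZ pair of experiment 3 was at 0.33 under insulin and 0.29 under glucagon. The Abcb11 pairs under insulin ran from -0.30 to 0.58. Fbp1 was at 0.10 (SE 0.065) there against 0.71 under glucagon, and the difference of 0.61 (SE 0.15, unadjusted p = 9.06e-04, adjusted p = 0.657 with limma) did not pass. Abcb11 was at 0.03 (SE 0.10) against 0.37, a difference of 0.35 (SE 0.13, unadjusted p = 0.0160, adjusted p = 0.979). Their levels without GW4064 lay on opposite sides, as glucagon minus insulin was 0.92 for Fbp1 and -1.02 for Abcb11. Abcb11 read 4.35 to 5.87 on the insulin DMSO arrays, against 4.20 to 4.97 with glucagon and GW4064. The probe set of Slc51b and Rasl12 went from 3.05 to 3.78 with DMSO up to 4.40 to 5.19 with GW4064 under insulin, and its difference was larger under glucagon by 1.26 (SE 0.32, adjusted p = 0.879 in the limma fit over every probe set). Mybl1 differed by 1.07 (SE 0.11, adjusted p = 0.0209) under insulin and by 0.97 under glucagon, a difference of -0.10 with an interval from -0.50 to 0.30.

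A single gene had a GW4064 response that differed between the hormones past the threshold, Id2 (1 of 22180 genes, 0.00451%; 1096 at an unadjusted p under 0.05). Id2 (17280310) is an inhibitor of helix-loop-helix transcription factors. Under glucagon it read 8.72, 8.78 and 8.81 with shlacZ and DMSO and 8.88, 8.37 and 8.56 with GW4064, and 8.67, 8.70 and 9.30 against 8.52, 8.29 and 9.05 with shFOXA2. Under insulin it read 6.31, 5.81 and 6.97 with shlacZ and DMSO and 7.13, 6.84 and 7.18 with GW4064, and 6.31, 5.82 and 6.36 against 7.46, 6.75 and 7.28 with shFOXA2. All glucagon arrays were above all insulin arrays, GW4064 was lower in 5 of 6 pairs under glucagon, and it was higher in 6 of 6 under insulin. The differences were -0.22 (SE 0.080, adjusted p = 0.797) and 0.84 (SE 0.11, adjusted p = 0.0678), neither of which passed, and the test of their difference gave -1.06 (SE 0.14, adjusted p = 0.0274 with limma). The call was lost without the pair block (adjusted p = 0.99995), and without experiment 1 (0.299), 2 (0.999) or 3 (0.0514). It was also lost with every probe set tested (0.197), and over the 9 alternatives the adjusted p ran from 0.00237 to 0.99995. The test took the pairs as separate, although the pairs of an experiment, of both hairpins and both hormones, shared a pool of cells. A fit with the hairpins averaged was not among the alternatives, so the call for Id2 rests on pairs that are not independent.

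**Figure D4:**
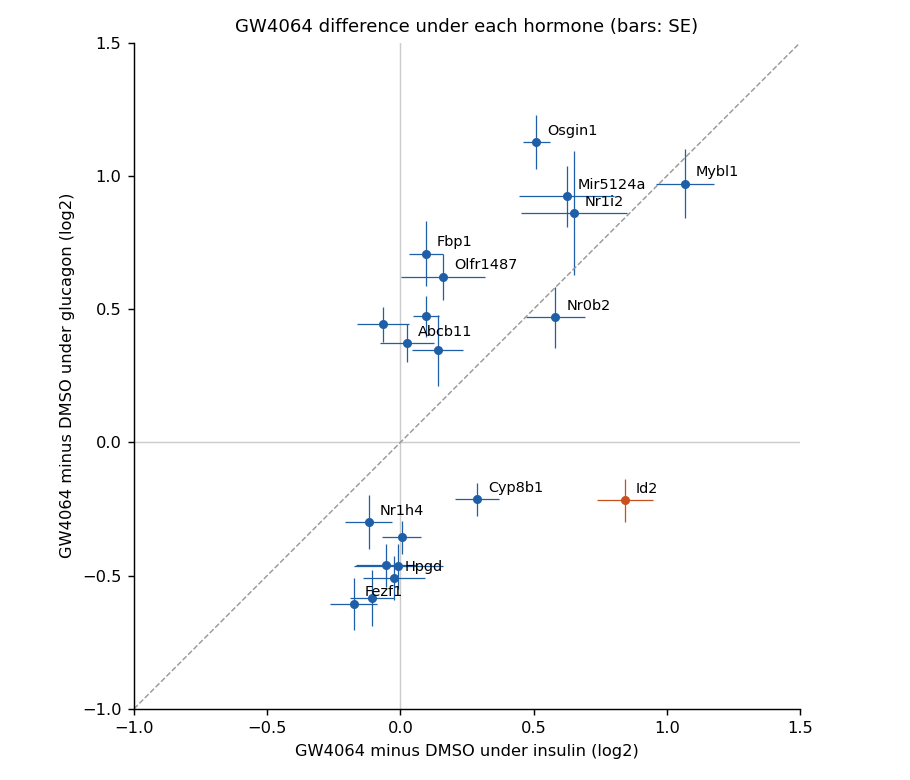
GW4064 minus DMSO (log2) under insulin (x axis) and under glucagon (y axis) for the genes described above, with the SE as bars and the dashed line where both are equal. Id2, in orange, is below 0 under glucagon and at 0.84 under insulin, while Fbp1 and Abcb11 lie above the line near 0 on the insulin axis.

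The GW4064 difference was then read in genes that glucagon changes. Genes were called from the DMSO arrays of either hairpin and read in the GW4064 pairs of the other. No array entered both the hormone difference and the GW4064 difference of a gene. However, the adjusted p of the calls used a variance fitted over all arrays of the series, so the calls were not separate from the pairs. With shFOXA2, glucagon raised 183 genes over 2-fold (0.825%) and lowered 148 (0.667%), and with shlacZ it raised 147 (0.663%) and lowered 130 (0.586%). The 183 raised genes had a median GW4064 difference of -0.16 with shlacZ and 81.4% lay below 0, against 54.1% of all genes. By experiment the median was -0.05, -0.28 and -0.13. The 147 raised genes had a median of -0.10 with shFOXA2 and 66.7% lay below 0, against 46.5% of all genes, and the medians by experiment were -0.04, -0.22 and 0.03. The lowered genes lay the other way, with medians of 0.05 for the 148 in shlacZ pairs and 0.09 for the 130 in shFOXA2 pairs, where 35.8% and 31.5% were below 0. Without the 2-fold limit the medians were nearer 0, and the raised and lowered genes read with shFOXA2 no longer lay on opposite sides. The 1179 genes that glucagon raised with shFOXA2 (5.32% of all genes) had a median of -0.08 in the shlacZ pairs (73.4% below 0), but the 1033 raised with shlacZ (4.66%) had a median of -0.01 in the shFOXA2 pairs (52.1% below 0, against 46.5%). Of the lowered genes, the 1321 called with shFOXA2 (5.96%) had a median of 0.01 in the shlacZ pairs (48.2% below 0). The 1448 called with shlacZ (6.53%) had a median of -0.002 in the shFOXA2 pairs, where 50.3% were below 0, above the share of all genes. Experiment 2 gave the widest median in each case, and in experiment 3 the raised genes lay below 0 with shlacZ but not with shFOXA2. These medians are small beside the 1.5-fold mark, and they are descriptions over genes of the same 3 pools.

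**Figure D5:**
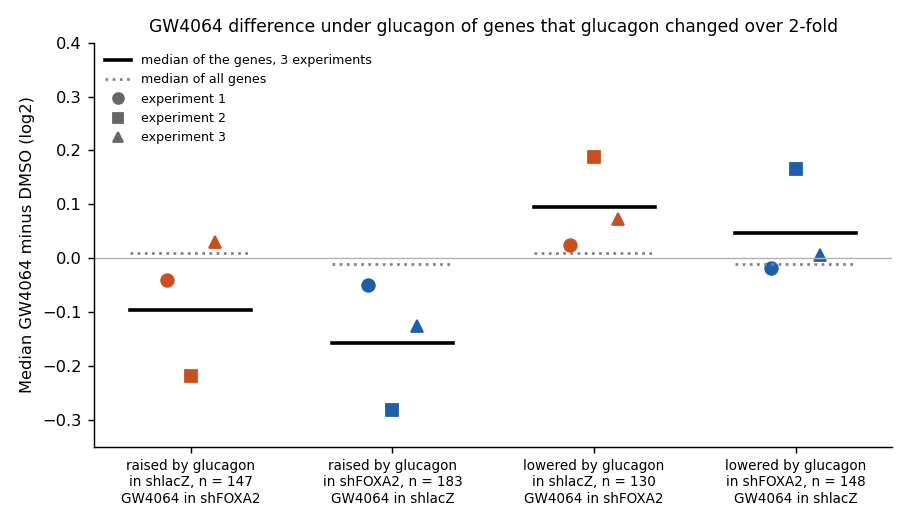
Median GW4064 minus DMSO difference under glucagon (log2, y axis) of genes that glucagon raised or lowered over 2-fold on the DMSO arrays of the other hairpin; points are the 3 experiments (blue where read with shlacZ, orange with shFOXA2), black bars the median over genes of the mean difference and dotted lines the median of all genes. The raised genes lie at -0.10 and -0.16 and the lowered genes at 0.09 and 0.05, with experiment 2 farthest from 0 in each group.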

How the data were processed

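RNA of 24 hepatocyte cultures (300 ng each) was hybridised to Affymetrix MoGene 2.0 ST arrays, and 12 glucagon arrays carry the main comparison. The deposited values are log2 intensities per probe set, made by the authors with GeneSpring, per the series' design text; their normalization is not given in the sources used here. Technical replicates were pooled by sample. The platform annotation names 1 gene for 23521 of the 41345 probe sets, several for 1814 and no gene for 16010; where a gene had more than 1 probe set, the 1 with the highest mean was used (22180 genes). Differences were fitted with limma 3.58.1 (R 4.3.3) with each GW4064 and DMSO pair as a block, Benjamini-Hochberg adjusted over all genes, after a test on simulated data. The hormone comparison used 24 arrays and 12 pairs, taken as separate although the pairs of an experiment shared a pool of cells. The pairing comes from the experiment number: same-experiment arrays deviated together from their group means (r 0.418 to 0.607 across genes). The r between experiments, -0.41 to -0.092, is pushed below 0 by taking deviations from means of 3 arrays and adds no separate support. Genes named are the 6 with the smallest p in each direction, those that passed, and members of the gene lists; members and lists were chosen with earlier results of these data known. Alternatives were no block, other blocks, scalings, filters, probe set rules, moderation and leaving out pairs. Figures used Python 3.11.15 and matplotlib 3.10.9. The number of arrays limits the precision.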

Additional observations from a re-analysis of the deposited data

Results flagged for a closer look

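In 3 of 19 genes examined, 1 of the 6 GW4064 and DMSO pairs under glucagon lay far from the others, by a test that marks about 1 group in 20 by chance. The shlacZ pair of experiment 3 was the lowest for Osgin1, at 0.55 with the other pairs at 1.15 to 1.51, and for Nr0b2, at -0.21 with the other pairs at 0.48 to 0.80. The same GW4064 array was the lowest of its group for the probe set of Slc51b and Rasl12. For Fezf1 the shlacZ pair of experiment 2 was the lowest, at -1.18, with the other pairs at -0.58 to -0.41. Without the shlacZ pair of experiment 3 the Osgin1 difference was 1.24 with an adjusted p = 4.63e-04 (limma). Leaving out the lowest pair has to raise the difference, so this is no added support. Other omissions lost the call, with a limma adjusted p = 0.0652 without the shlacZ pair of experiment 1. It was 0.0634 without the shFOXA2 pair of experiment 2 and 0.344 without experiment 1.

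The GW4064 response of Id2 differed between the hormones, by -1.06 (adjusted p = 0.0274 with limma), with 5 of 6 pairs lower under glucagon and 6 of 6 higher under insulin. Without GW4064, Id2 was 5.91-fold higher with glucagon than with insulin (adjusted p = 7.17e-12 with limma), a comparison that shares the DMSO arrays. In the test of the GW4064 response between the hormones, pairs that shared a pool of cells were taken as separate. No cause was tested.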

How the results depend on the processing

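With both hairpins, 1 gene passed under glucagon; the count was 0 without the replicate block (665 genes at an unadjusted p under 0.05), 0 over all 24 arrays without it, 2 over all 24 arrays with the experiment as replicate block, 0 with every probe set and 7 with a trended and robust variance. Leaving out an experiment or a pair gave 0 to 4, with 0 without experiment 1, 0 without experiment 2 and 4 without experiment 3. For shlacZ alone and for shFOXA2 alone the count of 0 became 1 with the experiment as replicate block, 1 with the trended variance, and 0 to 1 on leaving out pairs. The hairpin difference gave 0 under every alternative run. The hormone difference, 1 gene, gave 0 without the replicate block, 0 with every probe set and 0 without any of the 3 experiments. The cause was not tested. Over 60 results of single genes and 1090 alternatives, 0 reversed, 12 lost the call (Osgin1 in 7 and Id2 in 5) and 12 gained one. Alternatives that changed only the block, the variance or the genes tested left the difference as it was. Many of the genes were also picked for a small p over these same pairs. That 0 reversed was therefore largely fixed in advance and does not measure how firm the differences are. The Foxa2 hairpin difference was -0.61 to -0.28 on leaving out an experiment. With 6 pairs from 3 pools, and signal near the floor, the differences of Nr0b2, Cyp7a1 and Cyp8b1 did not pass, and changes of these genes could be missed.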

Other observations

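Genes that answer to the dexamethasone in the medium mostly lay close to 0 with GW4064 under glucagon. Of 10 glucocorticoid targets 0 passed with limma, and the median was -0.04 against 5.9e-05 over all genes. Although 9 lay below 0, these included values as small as -0.004 (SE 0.061) for Mt1 and -0.01 (SE 0.069) for Per1. The lowest were Tsc22d3, a leucine zipper protein, at -0.23 and Sgk1, a kinase, at -0.22. Of 10 genes of xenobiotic metabolism 0 passed and the median was -0.01, with Cyp1a1, a target of the aryl hydrocarbon receptor, at 0.46 (0.26 without experiment 1 and 0.71 without experiment 3). Of 18 plasma proteins 0 passed, 0 had an unadjusted p under 0.05 and the median was 0.02, and of 12 genes of cholesterol synthesis 0 passed and the median was 0.01, with Stard4, a sterol carrier, at -0.20.

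Of 17 liver transcription factors 0 passed, 12 lay below 0 and the median was -0.05, with Nr1i2, at 0.86, and Nr1h4, at -0.30, at the ends. Of 14 genes of ER stress and the amino acid response 0 passed, 10 lay above 0 and the median was 0.09, with Xbp1, a factor of the unfolded protein response, at -0.17. Of 12 immediate-early genes 0 passed and the median was 0.04, with Egr3, a zinc finger factor, at -0.28, and of 9 cell cycle genes 0 passed and the median was 0.05, with the kinase Cdk1 at 0.28 (0.18 without the shFOXA2 pair of experiment 1 and 0.15 without experiment 1).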
